A study of Homo sapiens with 16 samples.

Results

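The small heat shock proteins are chaperones that hold unfolding proteins in solution without using ATP and pass them to the ATP-driven HSP70 and HSP90 machines. They share a crystallin-type core domain and assemble into oligomers, and several of them bind actin, desmin or other filaments in muscle and in contractile fibroblasts. HSPB1 and CRYAB (also called HSPB5) are stress-inducible through heat shock factors, HSPB2 and HSPB3 form complexes with each other in muscle, HSPB6 and HSPB7 are best known from smooth, cardiac and skeletal muscle, and HSPB8 works with the co-chaperone BAG3 in the autophagy of aggregated proteins.

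Described here are 7 genes of this family (HSPB1, HSPB2, HSPB3, CRYAB, HSPB6, HSPB7 and HSPB8) of 34451 annotated genes measured, 19356 of them protein-coding. The genes were chosen by their summed transcript levels in these same 16 libraries, so their levels and differences are given as a description without a test. RNA was sequenced from the isogenic BJ model of human fibroblast lines, which has 4 stages: primary BJ cells, immortalized cells (BJ hTERT+), transformed cells (BJ hTERT+ SV40+) and metastasizing cells (BJ hTERT+ SV40+ Ras-G12V). The later lines therefore carry every alteration of the earlier ones, hTERT being the catalytic subunit of telomerase, SV40 standing for the viral Large-T oncogene and Ras-G12V for an activated oncogene. Each line was kept for 6 passages in serum-containing medium at atmospheric or at 3% oxygen, on duplicate plates, which gives 8 groups of 2 libraries. Each stage is represented by 1 cell line, so the stage and the line cannot be told apart, and p-values measure only the spread between plates grown in parallel.

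Values are TPM (transcript abundances scaled to the same total in every library), corrected for transcript length. TPM keeps no record of the number of reads, so the depth of the libraries is unknown. All 10 fibroblast markers exceeded a mean of 1 TPM in every group, with a summed level of 21895 to 22449 TPM in primary cells at atmospheric oxygen and 3952 to 5732 TPM over the libraries of the transformed and metastasizing stages. Summed levels of the skeletal muscle markers stayed at or below 2.34 TPM, of the leukocyte markers at or below 3.73 TPM and of 4 endothelial markers at or below 10.4 TPM. Summed levels were 17.6 to 134 TPM for 5 neural and 120 to 678 TPM for 7 epithelial markers, and the part of these RNAs in the results was not tested. In bulk RNA, fewer cells that express a gene and less RNA per cell cannot be told apart. Among genes of at least 1 TPM, 11% differed more than 2-fold between the 2 libraries of metastasizing cells at 3% oxygen, against 1.83% to 4.08% in the other groups.

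Promoter windows of 5 of the genes were matched in RefSeq (GRCh38.p14, 250 bases before to 50 bases after the annotated start), namely those of HSPB1, HSPB3, HSPB6, HSPB7 and HSPB8. The windows were searched on both strands for an 8-base heat shock element (GAANNTTC or TTCNNGAA, each its own reverse complement), the kind of paired repeat that heat shock factors bind. A match was found in 4 of the 5 windows and in 13.5% of all 35116 windows (4737). The core ACGTG or GCGTG, which is contained in sites of hypoxia-inducible factors, was found in 3 of the 5 (HSPB6, HSPB7 and HSPB8) and in 48.4% of all windows (17012), and no matches overlapped in the windows of these genes. The sequences are shown for the 4 genes with a heat shock element, so that its place can be set beside the different stage and oxygen patterns of these genes. Each runs 5′ to 3′ up to the base before the start, with the heat shock element in capitals. HSPB1 lies at chr7:76302423-76302672 on the plus strand, HSPB3 at chr5:54455449-54455698 on the plus strand, HSPB6 at chr19:35757030-35757279 on the minus strand and HSPB8 at chr12:119178681-119178930 on the plus strand, all GRCh38.p14.
HSPB1: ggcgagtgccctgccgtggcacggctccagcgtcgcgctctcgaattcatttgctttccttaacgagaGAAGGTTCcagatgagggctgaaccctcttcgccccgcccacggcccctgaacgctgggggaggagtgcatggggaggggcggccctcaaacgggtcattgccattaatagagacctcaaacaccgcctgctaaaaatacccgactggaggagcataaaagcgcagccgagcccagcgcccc
HSPB3: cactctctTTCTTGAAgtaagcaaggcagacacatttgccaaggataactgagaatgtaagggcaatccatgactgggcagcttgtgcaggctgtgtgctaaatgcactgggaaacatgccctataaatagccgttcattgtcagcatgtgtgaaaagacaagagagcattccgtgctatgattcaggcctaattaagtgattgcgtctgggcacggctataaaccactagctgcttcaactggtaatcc
HSPB6: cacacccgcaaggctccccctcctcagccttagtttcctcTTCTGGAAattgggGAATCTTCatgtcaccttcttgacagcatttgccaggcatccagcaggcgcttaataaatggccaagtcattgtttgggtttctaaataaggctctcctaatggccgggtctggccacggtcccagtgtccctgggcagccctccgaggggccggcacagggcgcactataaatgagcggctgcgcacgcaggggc
HSPB8: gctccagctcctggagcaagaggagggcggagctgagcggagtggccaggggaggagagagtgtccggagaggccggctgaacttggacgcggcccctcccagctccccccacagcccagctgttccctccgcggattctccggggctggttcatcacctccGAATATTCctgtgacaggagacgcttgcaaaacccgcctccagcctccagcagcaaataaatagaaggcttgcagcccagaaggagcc
The elements start 182 bases before the start of HSPB1, 242 before that of HSPB3, 210 and 196 before that of HSPB6 and 88 before that of HSPB8. HSPB8 has another match from base 5 after the start, outside the stretch shown. A match is a description of the letters in the window, and binding was not measured.

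The 7 genes together were highest in primary cells. Their summed level was 790 ± 41.5 TPM (SD, n = 2) at atmospheric and 452 ± 74.9 TPM at 3% oxygen in primary cells. It was 254 ± 64.6 and 213 ± 1.76 TPM in immortalized, 216 ± 20.4 and 152 ± 5.49 TPM in transformed and 278 ± 60.2 and 154 ± 66.5 TPM in metastasizing cells. Both primary groups lay above all other groups in this sum. The 2 oxygen levels of metastasizing cells, 235 and 320 TPM against 107 and 201 TPM, did not overlap. Neither order is certain, because HSPB1 shares sequence with a pseudogene, HSPB1P1 (below). These 2 together reached 498 TPM in 1 immortalized library at atmospheric oxygen. All 7 genes made 399 TPM in 1 primary library at 3% oxygen, where HSPB1P1 was listed at 0. In metastasizing cells HSPB1 with HSPB1P1 gave 465 and 307 TPM against 98.8 and 480 TPM, which overlapped. The make-up of the sum also differed by stage. HSPB1 held 41.7% to 73.9% of it in primary libraries and 92.7% to 97.6% in transformed and metastasizing libraries. CRYAB held 12.8% to 41.1% in primary libraries and at most 2.04% in all later ones, while HSPB3 held 18.1% and 27.4% in immortalized cells at atmospheric oxygen.

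**Figure D1:**
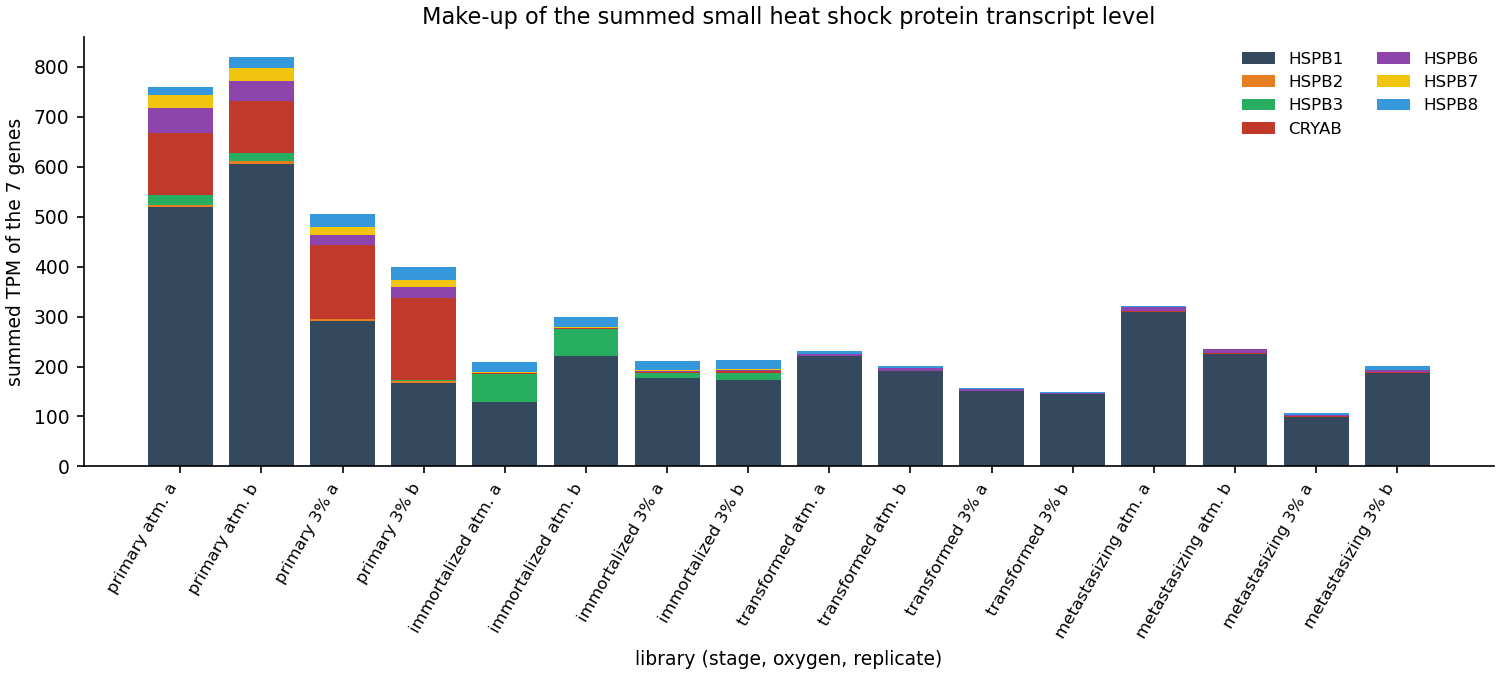
Stacked bars of the summed TPM of the 7 genes in each of the 16 libraries, with the vertical axis in TPM from 0 and a colour for each gene. CRYAB, HSPB6 and HSPB7 are visible parts of the primary bars, HSPB3 of the immortalized bars at atmospheric oxygen, and HSPB1 makes up 92.7% or more of each transformed and metastasizing bar.

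HSPB1 (ENSG00000106211, GRCh37 chromosome 7, 75931990 to 75933612, plus strand) encodes the most widely expressed member, a stress-inducible chaperone that also caps actin filaments and is phosphorylated by MAPKAPK2. It was the highest of the 7 in each of the 16 libraries. It measured 520 and 606 TPM in primary cells at atmospheric oxygen and 291 and 167 TPM at 3% oxygen. In immortalized cells the values were 128 and 221 TPM at atmospheric and 177 and 173 TPM at 3% oxygen. The primary cells at atmospheric oxygen thus stood above every other group, and in immortalized cells the oxygen levels overlapped. Transformed cells gave 220 and 191 TPM at atmospheric and 150 and 145 TPM at 3% oxygen, and metastasizing cells 310 and 225 TPM against 98.8 and 187 TPM. At 3% oxygen HSPB1 was lower without overlap in primary, transformed and metastasizing cells, with log2 fold changes of -1.35 (SE 0.34), -0.47 and -0.96 on the log2(TPM + 0.5) scale used for all fold changes. Each SE given here uses a spread shared by all 8 groups. It is the same for every comparison of 2 groups of a gene and does not measure the spread of the groups compared. In order of the mean, primary cells at atmospheric oxygen came first, and below them metastasizing cells at atmospheric oxygen (267 TPM), primary cells at 3% oxygen (229 TPM) and transformed cells at atmospheric oxygen (205 TPM) overlapped as neighbours.

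The level of HSPB1 is uncertain because a processed pseudogene, HSPB1P1 (ENSG00000236060, GRCh37 chromosome 9, 74622797 to 74623052, minus strand), shares sequence with it. Its annotated transcript has 256 bases, and 60.2% of its 226 stretches of 31 bases, the length kallisto matches by default, also occur in the HSPB1 transcripts listed. The labels give mean insert sizes of 264 to 364 bases for the libraries, more than the length of the pseudogene transcript. HSPB1P1 was listed at 39.5 and 26.0 TPM in primary cells at atmospheric oxygen and at 563 and 0 TPM at 3% oxygen. In immortalized cells it was listed at 370 and 24.5 TPM at atmospheric and at 366 and 0 TPM at 3% oxygen. In each of these early groups the ratio between duplicate plates was larger for HSPB1P1 than for HSPB1, or HSPB1P1 was listed at 0 on 1 of the plates. Transformed cells gave 0 and 175 TPM at atmospheric and 45.4 and 0 TPM at 3% oxygen, and metastasizing cells 155 and 82.0 TPM against 0 and 293 TPM. With HSPB1P1 added, the log2 fold change of HSPB1 at 3% oxygen was -0.65 in place of -1.35 in primary cells, and that from primary to immortalized cells at atmospheric oxygen was -0.76 in place of -1.73. Differences under 2-fold also changed sign with the sum: from immortalized to transformed cells at atmospheric oxygen 0.28 became -0.30, from transformed to metastasizing cells at 3% oxygen -0.12 became 0.37, and at 3% oxygen in immortalized cells 0.06 became -0.19. This sum was chosen after the data were seen. The split between HSPB1 transcripts varied likewise: ENST00000429938 made up 24.2% and 0% of HSPB1 in the 2 primary libraries at atmospheric oxygen, the rest being almost all ENST00000248553.

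**Figure D2:**
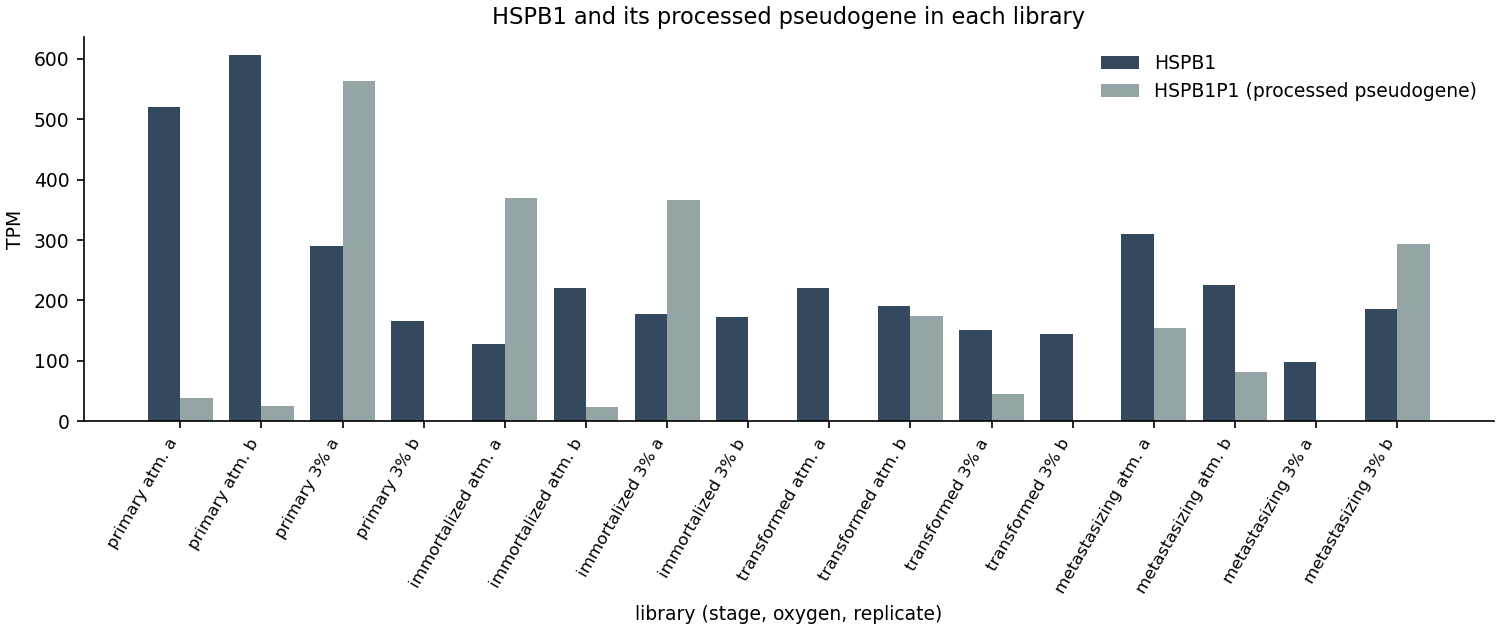
Bars of the TPM of HSPB1 (dark) and of its processed pseudogene HSPB1P1 (light) in each of the 16 libraries, with the vertical axis in TPM from 0. HSPB1P1 reaches 563 TPM in one primary library at 3% oxygen and is listed at 0 in the other, whereas HSPB1 differs less between the same libraries.

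CRYAB (ENSG00000109846, chromosome 11, 111779288 to 111794446, minus strand) encodes alphaB-crystallin, a lens and muscle chaperone that protects desmin filaments. It was second to HSPB1 in primary cells and near 1 TPM in most later libraries. It measured 124 and 104 TPM in primary cells at atmospheric and 148 and 164 TPM at 3% oxygen. In immortalized cells it measured 1.38 and 1.0 TPM at atmospheric and 2.30 and 4.37 TPM at 3% oxygen. Primary cells stood above all others at both oxygen levels, with log2 fold changes from primary to immortalized cells of -6.09 (SE 0.30) at atmospheric and -5.40 at 3% oxygen. Transformed cells gave 0.632 and 0.705 TPM at atmospheric and 1.20 and 0.708 TPM at 3% oxygen, and metastasizing cells 1.41 and 0.990 TPM against 1.09 and 1.93 TPM. Among the later groups in order of the mean, immortalized and transformed cells at 3% oxygen did not overlap with the next lower group, and the other neighbours overlapped. At 3% oxygen CRYAB was higher without overlap in primary (log2 fold change 0.45) and immortalized cells (1.14), and the oxygen levels overlapped in metastasizing cells (0.22). The transcript ENST00000527950 held 57.6% to 71.9% of CRYAB in the 4 primary libraries.

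HSPB2 (ENSG00000170276, chromosome 11, 111783458 to 111784817, plus strand), a partner of HSPB3 that binds the myotonic dystrophy kinase in muscle, overlaps CRYAB on the opposite strand. It measured 4.43 and 6.55 TPM in primary cells at atmospheric and 3.49 and 4.66 TPM at 3% oxygen. All other libraries were between 0 and 0.236 TPM, and both libraries of immortalized and of transformed cells at atmospheric oxygen were listed at 0. HSPB2 was thus a gene of the primary cells, where the oxygen levels overlapped. Of the 843 exonic bases of its transcript, 598 also lie in exons of CRYAB transcripts on the other strand and 719 in the readthrough transcripts HSPB2-C11orf52. The readthrough had a mean of 4.37 TPM in primary cells at atmospheric and of 1.62 TPM at 3% oxygen. The library kit kept the strand, but the sources used here do not state whether the quantification used it, so reads of HSPB2, the readthrough and CRYAB cannot be told apart with certainty.

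HSPB6 and HSPB7, both muscle-associated, were also highest in primary cells. HSPB6 (ENSG00000004776, chromosome 19, 36245467 to 36248980, minus strand), a regulator of smooth muscle relaxation, measured 48.4 and 39.9 TPM in primary cells at atmospheric and 20.6 and 23.4 TPM at 3% oxygen. In immortalized cells it was 0.905 and 1.14 TPM at atmospheric and 1.84 and 1.51 TPM at 3% oxygen. This was its lowest stage, with log2 fold changes from primary cells of -4.87 (SE 0.29) at atmospheric and -3.37 at 3% oxygen. Unlike CRYAB and HSPB7, HSPB6 was higher again in the later stages at atmospheric oxygen, at 4.05 and 4.74 TPM in transformed (log2 fold change 1.68) and 8.88 and 8.37 TPM in metastasizing cells. At 3% oxygen these stages gave 3.97 and 1.92 TPM and 2.95 and 4.92 TPM, which overlapped. HSPB6 was lower at 3% oxygen in primary, transformed and metastasizing cells, by -0.99, -0.57 and -1.08 on the log2 scale, and higher in immortalized cells (0.51).

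HSPB7 (ENSG00000173641, chromosome 1, 16340523 to 16346089, minus strand), a cardiovascular chaperone that binds filamin C, measured 26.3 and 26.5 TPM in primary cells at atmospheric and 16.4 and 13.9 TPM at 3% oxygen. In immortalized cells it was 0.677 and 1.26 TPM at atmospheric and 1.34 and 2.08 TPM at 3% oxygen. The stage difference was -4.23 (SE 0.25) at atmospheric and -2.84 at 3% oxygen on the log2 scale. The 8 transformed and metastasizing libraries were between 0 and 0.329 TPM. HSPB7 was lower at 3% oxygen in primary (-0.79) and higher in immortalized cells (0.60), without overlap in either.

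HSPB3 (ENSG00000169271, chromosome 5, 53751529 to 53752207, plus strand), the short partner of HSPB2 and a gene mutated in a motor neuropathy, followed another order. It measured 20.4 and 15.3 TPM in primary cells at atmospheric oxygen and 0.785 and 0.800 TPM at 3% oxygen. In immortalized cells it measured 57.1 and 54.3 TPM at atmospheric and 9.61 and 14.1 TPM at 3% oxygen. Immortalized cells thus lay above primary cells at either oxygen level, with log2 fold changes of 1.63 (SE 0.25) at atmospheric and 3.23 at 3% oxygen. Within both stages HSPB3 was lower at 3% oxygen, by -3.81 in primary and -2.21 in immortalized cells, and the 4 groups did not overlap with each other. In ratios of mean TPM, it was 22.5-fold lower at 3% oxygen in primary and 4.71-fold lower in immortalized cells. Transformed and metastasizing cells held 0 to 0.287 TPM, with all 4 libraries at 3% oxygen listed at 0. From immortalized to transformed cells at atmospheric oxygen the log2 fold change was -6.47, or -5.64 and -7.89 with a pseudocount of 1 and of 0.1. All of its TPM came from 1 transcript, ENST00000302005.

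HSPB8 (ENSG00000152137, chromosome 12, 119609360 to 119662660, plus strand) encodes the BAG3 partner of chaperone-assisted autophagy. Its oxygen difference, like those of HSPB6 and HSPB7, changed direction between stages. It measured 17.4 and 20.8 TPM in primary cells at atmospheric and 25.4 and 25.8 TPM at 3% oxygen. In immortalized cells it measured 20.4 and 21.0 TPM at atmospheric and 19.3 and 18.9 TPM at 3% oxygen. These early stages stayed within 17.4 to 25.8 TPM. In transformed cells HSPB8 measured 5.54 and 5.15 TPM at atmospheric and 0.646 and 0.899 TPM at 3% oxygen. In metastasizing cells it measured 0.355 and 0.388 TPM at atmospheric and 3.39 and 6.98 TPM at 3% oxygen. The low-oxygen libraries were thus lower in transformed cells (log2 fold change -2.21, SE 0.25, 6.92-fold by mean TPM) and higher in metastasizing cells (2.63, SE 0.25, 13.9-fold). Both SEs are the shared one, so they do not show the wider gap between the metastasizing libraries at 3% oxygen. The oxygen difference of metastasizing cells exceeded that of transformed cells by 4.84 on the log2 scale. Leaving out each library in turn, the difference in metastasizing cells stayed between 2.16 and 3.10 and that in transformed cells between -2.35 and -2.06. With a pseudocount of 1 and of 0.1 they were 2.11 and 3.40 in metastasizing and -1.84 and -2.66 in transformed cells. A fit of only the 2 groups compared no longer called the difference in metastasizing cells, and it called 112 of all genes in place of 941. Transformed cells at atmospheric and metastasizing cells at 3% oxygen overlapped, whereas the remaining late groups were separate. The transcript ENST00000281938 held at least 99.2% of HSPB8 in the 8 primary and immortalized libraries.

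**Figure D3:**
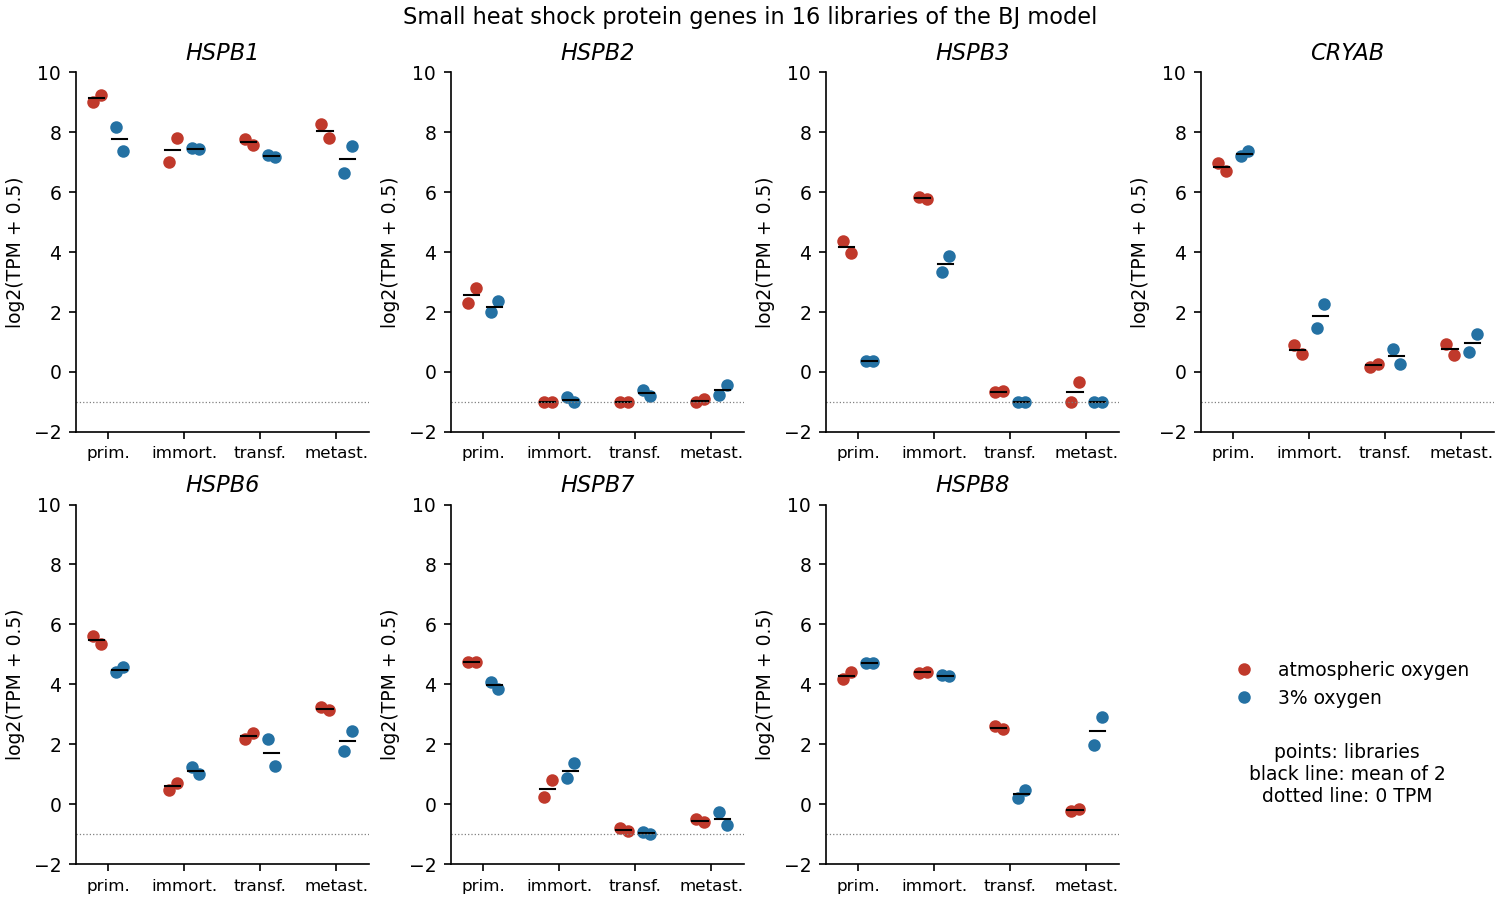
log2(TPM + 0.5) of each of the 7 genes (vertical axis) in the 4 stages (horizontal axis) at atmospheric (red) and 3% oxygen (blue). Points are libraries, black lines the means of 2, and the dotted line marks 0 TPM. CRYAB, HSPB2, HSPB6 and HSPB7 are highest in primary cells, HSPB3 in immortalized cells, and HSPB8 crosses over between transformed and metastasizing cells.

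Counts of members past the thresholds (limma, Benjamini-Hochberg adjusted p under 0.01 over all genes tested, more than 2-fold, mean of at least 1 TPM in a group compared) are given beside the share of all protein-coding genes called, and nothing is read from them because the same values chose the members. At 3% against atmospheric oxygen, 1 of 7 was called in primary cells (HSPB3 lower, 5.30% of all genes called), 1 of 6 in immortalized cells (HSPB3 lower, 4.91%), 1 of 3 in transformed cells (HSPB8 lower, 7.48%) and 1 of 4 in metastasizing cells (HSPB8 higher, 7.66%). The members left out of each count did not reach 1 TPM. From primary to immortalized cells, 6 of 7 were called at atmospheric oxygen (12.2% of all genes), of which HSPB3 was higher, and 5 of 7 at 3% oxygen (9.23%). From immortalized to transformed cells the counts were 3 of 5 (24.3%) and 4 of 6 (16.3%), and HSPB6 at atmospheric oxygen was the member called higher. From transformed to metastasizing cells HSPB8 was the member called of 4, lower at atmospheric (4.12%) and higher at 3% oxygen (5.92%). The call of HSPB1 from primary to immortalized cells was lost in 3 of the 16 fits without 1 library and with HSPB1P1 added. Over the processing settings, HSPB1 was called in 9 of 11 and HSPB3 in 10 of 11 from primary to immortalized cells at atmospheric oxygen. CRYAB was called in 9 of 10 from immortalized to transformed cells at 3% oxygen. The median log2 fold change of the members tested at 3% oxygen was -0.79 in primary cells, beside 0.08 for all genes tested. It was 0.28 in immortalized cells (0.11), -0.57 in transformed cells (0.01) and -0.37 in metastasizing cells (-0.13), with the median of all genes in brackets. Nothing is read from these medians either.

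**Figure D4:**
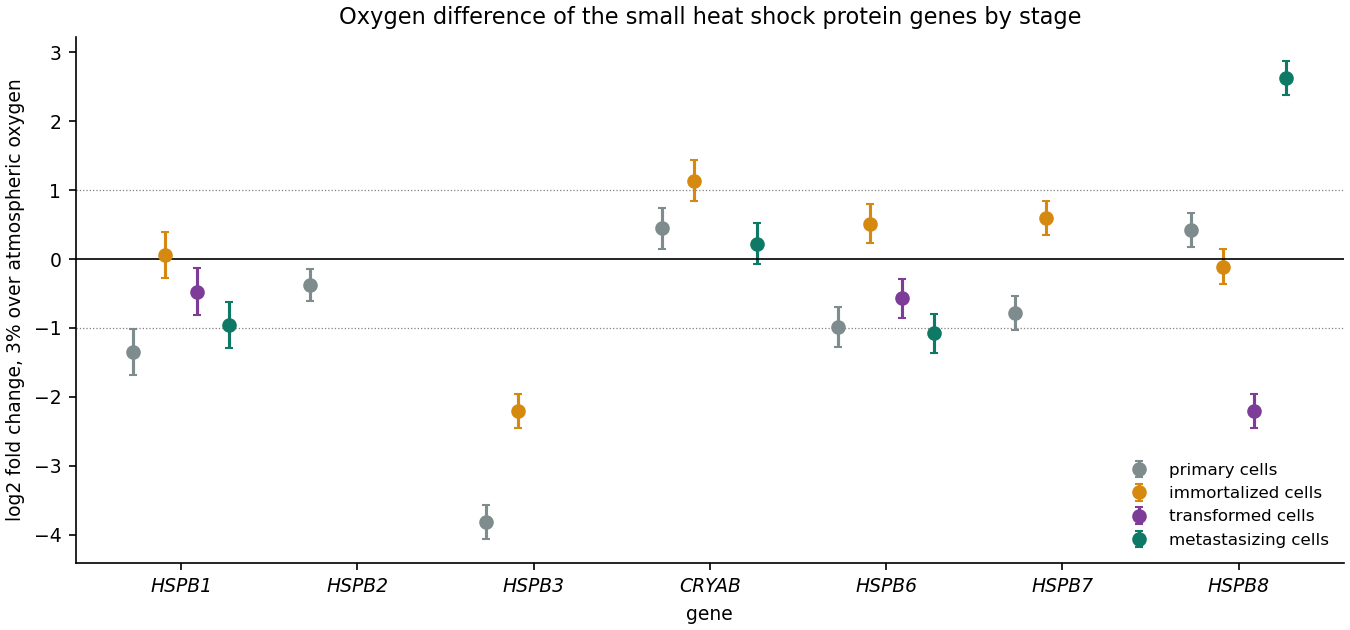
Log2 fold change of 3% over atmospheric oxygen (vertical axis) for each of the 7 genes (horizontal axis), with a point for each stage in which the gene reached 1 TPM and bars for the standard error of the limma fit. The bars of a gene are equal in all stages because the fit shares its spread over all groups. HSPB3 is below -2 in both stages where it reached 1 TPM, and HSPB8 lies at -2.21 in transformed and 2.63 in metastasizing cells. Dotted lines mark a 2-fold difference.

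The remaining family members were at 0 or low, or were not called. CRYAA, the lens alphaA-crystallin, was listed at 0 in all 16 libraries, and HSPB9 and ODF1, both testis genes, reached at most 0.325 and 0.105 TPM. HSPB11, now named IFT25 and a subunit of intraflagellar transport, ranged from 44.8 to 117 TPM and was not called in any comparison.

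Across the means of the 8 groups on the log2 scale, the members fell into patterns that overlapped in part, given as a description over 8 points that share cell lines. Pearson's r was 0.98 between CRYAB and HSPB2, 0.97 between CRYAB and HSPB7, 0.83 between CRYAB and HSPB6 and 0.65 between CRYAB and HSPB1. HSPB3 had r of -0.10 with HSPB6 and 0.70 with HSPB8. Among 13138 other protein-coding genes, those most like CRYAB were STMN2, MFAP5 and ANO3 (r 0.991 to 0.996), and those most like HSPB7 were WFDC1, CCDC107 and METTL24 (0.99). ATRAID, INMT and MYOF were most like HSPB3 (0.98 to 0.99), and COL18A1, SH3BGRL3 and NIBAN2 were most like HSPB8 (0.96 to 0.97). HSPB6 was followed most closely by PCDHGB6, ADAMTS2 and TMEM143 (0.97 to 0.98), HSPB1 by CYFIP2, IER5L and THBS2 (0.95 to 0.96), and HSPB2 by ENSG00000262526, EPB41L3 and OLFM1 (0.99).

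Neighbouring genes were tested because they were not used to choose the members. SNX18, a sorting nexin 61381 bases beyond HSPB3 and the nearest protein-coding gene on that side, fell at 3% oxygen in primary cells (log2 fold change -1.20, SE 0.16, limma adjusted p = 0.000524) and from immortalized to transformed cells at atmospheric oxygen (-2.02, adjusted p = 1.84e-06). In immortalized cells, where HSPB3 was also lower at 3% oxygen, SNX18 was not called (-0.44, adjusted p = 0.0666), nor was it from primary to immortalized cells, where HSPB3 was higher. ARL15, on the other side of HSPB3, was not called at 3% oxygen in primary or immortalized cells (-0.16 in both). C11orf52, which starts 3938 bases beyond HSPB2 and overlaps CRYAB, fell from primary to immortalized cells (-1.43 at atmospheric and -1.47 at 3% oxygen, limma adjusted p = 0.000866 and 0.00106) from a mean of 1.71 TPM. C11orf52 ends at the same base as the readthrough HSPB2-C11orf52, which had 4.37 TPM in primary and 0 TPM in immortalized cells at atmospheric oxygen. Reads of these overlapping genes cannot be told apart with certainty, so the test of C11orf52 is not independent of the members. CFAP68 on the other side of CRYAB was 15.4 TPM in primary and 17.4 TPM in immortalized cells at atmospheric oxygen. The genes beside HSPB8, SRRM4 and CCDC60, stayed at or below 0.306 TPM in the group means.

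The partners of the small heat shock proteins were described over 75 genes in 7 lists: heat shock factors, small HSP kinases, the BAG family with aggregate autophagy, the HSP40 family, the HSP70 family, HSP90 with its co-chaperones, and chaperonins. These lists were not used to choose the members. At 3% oxygen 4 of 70 tested were called in primary cells (3 rose, 1 fell), beside 5.30% of all genes, and 5 of 69 in transformed cells (2 rose, 3 fell), beside 7.48%, both close to that share. In immortalized cells 1 of 69 rose, beside 4.91% of all genes, and in metastasizing cells 3 of 69 were called (1 rose, 2 fell), beside 7.66%. Leaving out 1 library lowered the count in primary cells to 0 without the atmospheric replicate a or the low-oxygen replicate b, and to 1 without the atmospheric replicate b. HSPA8, the constitutive HSP70 that receives clients from small heat shock proteins, measured 1541 and 1727 TPM in primary cells at atmospheric and 3868 and 3898 TPM at 3% oxygen. It rose with a log2 fold change of 1.25 (SE 0.19, limma adjusted p = 0.00117). MAPK13, a p38 kinase in the list of small HSP kinases, rose in primary (1.26, limma adjusted p = 0.00546) and transformed cells (2.07, adjusted p = 0.000258). In transformed cells it went from 0.513 and 1.06 TPM to 4.34 and 5.20 TPM. The call in primary cells was lost with a pseudocount of 0.1, without a filter and with protein-coding transcripts only (limma adjusted p = 0.0131, 0.0107 and 0.0165). A fit of only the groups compared lost it in primary (adjusted p = 0.0335) and transformed cells (adjusted p = 0.0111). DNAJB4, a co-chaperone of HSP70, rose in immortalized (1.02, adjusted p = 0.00036) and fell in metastasizing cells (-1.82, adjusted p = 8.47e-06), from 82.9 and 92.8 TPM to 21.9 and 27.2 TPM.

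HSF1, the main heat shock factor, measured 21.3 to 35.5 TPM over all libraries and was not called in any comparison. HSF2 was not called between oxygen levels, with log2 fold changes of 0.82 in transformed (adjusted p = 0.00621, under 2-fold) and -0.70 in metastasizing cells (adjusted p = 0.0161), and the difference between these stages passed the test (-1.52, SE 0.26, limma adjusted p = 0.00208), though not in a fit of only the 4 groups (adjusted p = 0.0174). BAG3, the partner of HSPB8, measured 61.2 and 56.1 TPM in transformed cells at atmospheric and 32.5 and 33.0 TPM at 3% oxygen, a difference of -0.83 (adjusted p = 0.000832) that was under 2-fold. In metastasizing cells BAG3 was at 55.1 and 49.8 TPM against 50.1 and 40.4 TPM (-0.22, adjusted p = 0.234). MAPKAPK2, the kinase of HSPB1, stayed between 38.0 and 54.0 TPM. HSPA1A and HSPA1B, the inducible HSP70 genes, were listed at 0.0886 TPM or less in every library. They are near-identical copies of each other, and the transcripts that were not matched to a gene were not searched for them, so their level is uncertain.

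At the step from immortalized to transformed cells many of the ATP-driven partners were higher at atmospheric oxygen, and fewer were called after median-ratio rescaling. At atmospheric oxygen 34 of 70 partner genes tested were called, 30 higher and 4 lower, beside 24.3% of all genes. By list, 9 of 10 chaperonins and 8 of 12 genes of the HSP90 list rose and none fell, and 6 of 13 HSP40 and 5 of 11 HSP70 genes rose. HSP90AA1, the inducible HSP90, measured 530 and 518 TPM in immortalized and 1509 and 1496 TPM in transformed cells (log2 fold change 1.52, SE 0.09, limma adjusted p = 2.79e-07). HSPD1, the mitochondrial HSP60, went from 225 and 238 TPM to 604 and 587 TPM (1.36, adjusted p = 1.65e-05). DNAJB1, an HSP40 co-chaperone of HSPA8, went from 79.0 and 76.8 TPM to 189 and 184 TPM (1.25, adjusted p = 0.000705). FKBP5 and FKBP4, immunophilin co-chaperones of HSP90, rose by 3.20 and 2.44 on the log2 scale. SYNPO2, an actin-bundling protein that works with BAG3, fell by 3.84 on the log2 scale, from 13.4 and 12.3 TPM to 0.580 and 0.304 TPM. The HSP70 genes also moved in both directions, since HSPA2, a relative best known from testis, fell by 2.36 on the log2 scale while HSPA8 rose by 1.29. The median of all genes tested was 0.22 in this comparison, and median-ratio rescaling moved it by -0.21. After it 25 partner genes were called (20 higher, 5 lower) and 4 of 10 chaperonins, beside 2827 of 12413 genes.

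At 3% oxygen the same step moved 10 of the 70 partner genes (7 higher, 3 lower), beside 16.3% of all genes. None of the 10 chaperonins was called there, with 2 at an unadjusted p under 0.05, and of the HSP90 list FKBP4 and FKBP5 were called. The test of the difference between these steps, which equals the difference of the oxygen responses of transformed and immortalized cells, called 18 of 70 partner genes (2 higher, 16 lower), beside 12.0% of all genes. Lower were 7 of 10 chaperonins and 6 of 12 genes of the HSP90 list. With median-ratio rescaling 13 partner genes were called (3 higher, 10 lower), beside 1446 of 12722 genes. TRAP1, the mitochondrial HSP90, measured 57.5 and 52.9 TPM in immortalized cells at atmospheric and 75.4 and 82.3 TPM at 3% oxygen, and 148 and 151 TPM against 63.2 and 42.2 TPM in transformed cells. Its oxygen responses differed by -2.04 (SE 0.32, limma adjusted p = 0.000855), those of HSPD1 by -1.60 (adjusted p = 0.000306) and those of HSP90AA1 by -1.35 (adjusted p = 6.72e-05). HSPB8 and HSPB3, both chosen on these values, had differences of -2.10 and 1.86 between the same responses, in opposite directions. Of the members, these 2 of 6 were called in this difference, and nothing is read from it.

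**Figure D5:**
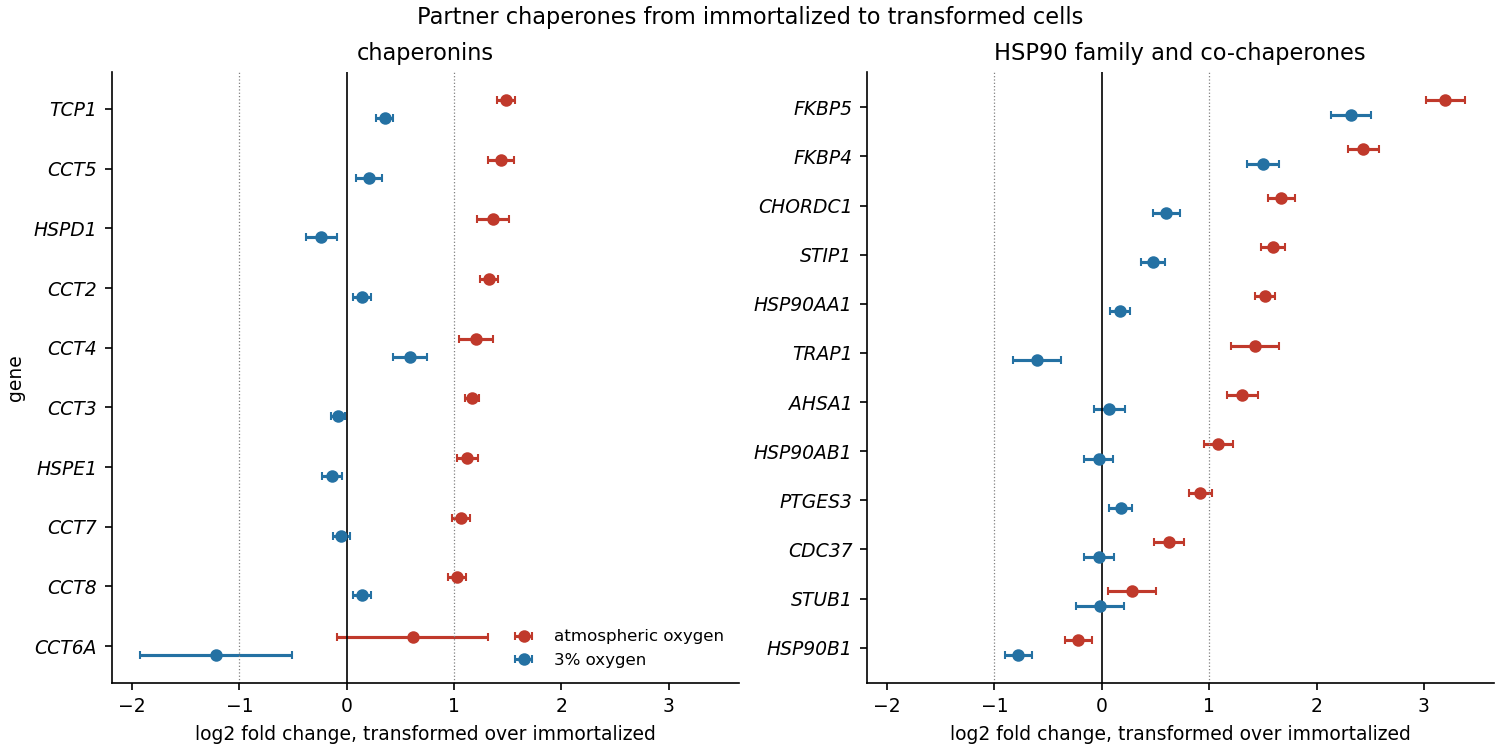
Log2 fold change of transformed over immortalized cells (horizontal axis) for the chaperonins (left) and for HSP90 and its co-chaperones (right), at atmospheric (red) and 3% oxygen (blue), with bars for the standard error of the limma fit and dotted lines at a 2-fold difference. At atmospheric oxygen 9 of 10 chaperonins lie above 1, and at 3% oxygen none does, while CCT6A, with a wide error, lies below -1.

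Between transformed and metastasizing cells the oxygen responses of the partners differed in the other direction. Called were 16 of 70 (14 higher, 2 lower), beside 8.47% of all genes and 1 of 4 members, and they included 6 of 10 chaperonins and 4 of 12 genes of the HSP90 list. TRAP1 differed by 1.73 (SE 0.32, limma adjusted p = 0.00299) and HSPA8 by 1.31 (adjusted p = 0.00607). These counts depended on single libraries: 9 were called without replicate b of transformed cells at atmospheric or at 3% oxygen, and 10 without replicate b of metastasizing cells at atmospheric or replicate a at 3% oxygen. With a fit of only the 4 groups 1 partner gene was called, and it was neither TRAP1 (adjusted p = 0.0335) nor HSPA8 (adjusted p = 0.0489). That fit called 123 of all genes in place of 1066. From primary to immortalized cells at atmospheric oxygen 6 of 70 partner genes were called (1 higher, 5 lower), beside 12.2% of all genes, with log2 fold changes of -3.52 for DNAJA4 and -2.73 for FKBP5. From transformed to metastasizing cells at atmospheric oxygen 5 of 69 were called, beside 4.12% of all genes, and this count was 1 or 2 without any of the 4 libraries compared.

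Genes of the contractile and filament apparatus, 13 in all, were examined because several small heat shock proteins bind its filaments. From primary to immortalized cells at atmospheric oxygen 10 of 13 fell and none rose, beside 12.2% of all genes called. ACTA2, the smooth muscle actin of myofibroblasts, went from 744 and 496 TPM to 85.5 and 68.1 TPM (log2 fold change -2.98, SE 0.38, limma adjusted p = 0.000136). CNN1, calponin of smooth muscle, went from 233 and 198 TPM to 25.6 and 27.3 TPM (-3.0). DES, the desmin gene, was at 1.90 and 1.01 TPM in primary cells and listed at 0 in immortalized cells. The step at 3% oxygen called 2 of 13, DES (-1.81) and FLNC (-1.24), both lower, beside 9.23% of all genes, and ACTA2 had a log2 fold change of -0.15 there (adjusted p = 0.805). Between oxygen levels 5 of 13 fell at 3% oxygen in primary cells, beside 5.30% of all genes, namely ACTA2 (-2.95, adjusted p = 0.000396), LMOD1 (-2.45, adjusted p = 0.000961), CNN1, TPM2 and FLNA. The count was 2 without the atmospheric replicate a and 3 without any other of the 4 primary libraries, and 1 gene was called in a fit of only these groups. That fit called 164 of all genes in place of 646. HSPB6 and HSPB7 were lower and CRYAB was higher in the same low-oxygen libraries of primary cells.

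In transformed cells 3 of 12 contractile genes fell at 3% oxygen, beside 7.48% of all genes: TAGLN, an actin-binding protein of smooth muscle, from 1750 and 1630 TPM to 204 and 222 TPM (-2.99, SE 0.44, limma adjusted p = 0.000576), MYL9 (-1.73) and FLNC (-1.12). In immortalized cells 1 of 11, CNN1, rose (1.16, adjusted p = 0.00145), beside 4.91% of all genes, a call that was lost without any of the 4 libraries compared. In metastasizing cells none of 11 was called by limma, beside 7.66% of all genes, with 1 at an unadjusted p under 0.05, and 1 was called without the low-oxygen replicate a and 2 without replicate b. The step from immortalized to transformed cells at atmospheric oxygen lowered ACTA2 (-2.83), LMOD1 (-3.95) and CALD1 (-1.55) of 11 tested, beside 24.3% of all genes called. From transformed to metastasizing cells at atmospheric oxygen 1 of 11 was called, beside 4.12% of all genes: ACTA2 rose from 10.6 and 9.98 TPM to 37.9 and 32.6 TPM (1.73, adjusted p = 0.00974), a call that was lost with either rescaling, without a filter, with the replicate block, with protein-coding transcripts only, and without any 1 library other than those of metastasizing cells at 3% oxygen.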

How the data were processed

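RNA of the 16 libraries was sequenced after poly-A selection with a stranded kit. The authors deposited transcript TPM values, made with kallisto 0.42.1 on GRCh37 transcripts per the labels and the submitters' processing notes. TPM is relative to the total of the library, so a change in abundant transcripts moves all others, and it holds no read counts. The study's own test used estimated counts, which were not used here. Of 180253 listed transcripts, 151453 were matched to GENCODE 44 on GRCh37 and summed by gene (88.2% to 90.1% of TPM), and 28800 were not used. PECAM1 was not matched, and HSPB11 was matched as IFT25.

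limma 3.58.1 in R 4.3.3 (trend on log2(TPM + 0.5), 1 coefficient per group over all 16 libraries) was fitted to protein-coding genes, and those whose mean reached 1 TPM in any group compared were tested. Genes were called at a Benjamini-Hochberg adjusted p under 0.01 and more than 2-fold. An exact permutation test of 2 against 2 libraries cannot go below p = 0.333. Tables were handled with Python 3.11.15, pandas 2.3.3 and numpy 2.4.6, and the scripts were tested on simulated data. Named genes were the 7 members and the other family genes, the neighbours of each locus, the 3 genes most correlated with each member, a set list of partners (HSF1, HSF2, BAG3, HSPA1A, HSPA1B, HSPA8, DNAJB1, HSP90AA1, MAPKAPK2, ACTA2), and in each comparison up to 3 called rises and 3 called falls of the partners and up to 2 of each of the contractile genes by size. Others, such as DES, and partners named in a further comparison, were chosen after their values were seen. The members and lists were chosen with earlier results of these data known. Comparisons that share a group share its libraries. Alternatives were another pseudocount, filter, scaling, set of groups, threshold or transcript set, a replicate block and leaving out each library. The sum of HSPB1 and HSPB1P1 was added after seeing the data. The replicate letters were checked for pairing: correlations of same-letter deviations ran from -0.169 to 0.246, so the letters were not taken as pairs.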

Additional observations from a re-analysis of the deposited data

Results flagged for a closer look

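Oxygen responses (3% against atmospheric) that differed between stages are listed with their log2 differences. The differences of transformed from immortalized cells and of metastasizing from transformed cells share the transformed response, with opposite sign. By the limma interaction test, transformed differed from immortalized cells in MAPK13 (2.18), HSPA2 (1.60), TRAP1 (-2.04), DNAJB4 (-1.86) and HSPD1 (-1.60). By the same test, metastasizing differed from transformed cells in TRAP1 (1.73), HSPA8 (1.31), MAPK11 (1.27), HSF2 (-1.52) and HSPA2 (-1.46). None of these last 5 differences was called in a fit of only the 4 groups compared, where the adjusted p ran from 0.0146 (HSPA2) to 0.0553 (MAPK11), and MAPK11 was also lost under the replicate block (adjusted p = 0.0145). The fit of only the 4 groups called 123 of all genes in place of 1066 there. The 5 differences between transformed and immortalized cells were called in such a fit, which called 1686 of all genes in place of 1522. That of MAPK13 was lost with protein-coding transcripts only (1.15, limma adjusted p = 0.0776).

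Among the small heat shock protein genes, the libraries at 3% oxygen lay on opposite sides of those at atmospheric oxygen in neighbouring stages, and these differences were not tested because the same values chose the genes. They were 1.5 for HSPB6, 1.38 for HSPB7 and -0.53 for HSPB8 between immortalized and primary cells, -1.08 for HSPB6 between transformed and immortalized cells, and 4.84 for HSPB8 between metastasizing and transformed cells. Groups of 2 libraries are too small to look for a library apart from the others.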

How the results depend on the processing

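No called value changed direction under the alternatives that were run. Of the counts of genes called, 608 stayed within 1.5 times the reported count and 78 did not. Of the fold changes of the 7 genes under these alternatives, 1229 moved by less than their standard error and 91 by more, of which 52 came from leaving out a library, 18 and 16 from a pseudocount of 0.1 and 1, and 5 from adding HSPB1P1. Many of the 1229 could not move. A filter, a replicate block or a fit of only the groups compared leaves a fold change as it is. So does leaving out a library of a group not compared, and 795 of the 1229 came from leaving out a library. The 1229 are therefore no measure of stability. Of the calls of other named genes, 2708 kept their side of the threshold, 161 were lost (113 by leaving out a library, 19 by a fit of only the groups compared) and 13 were gained. With 2 libraries per group and unknown depth, levels near 0 TPM are uncertain. Called small heat shock protein genes at 3% oxygen went from 1 to 2 in primary cells with median-ratio rescaling or an adjusted p under 0.05, from 1 to 2 in immortalized and metastasizing cells at that threshold, and from 1 to 0 in metastasizing cells with a fit of only the groups compared. All genes called went from 646 to 916 in primary, 592 to 839 in immortalized and 941 to 1282 in metastasizing cells at that threshold. With median-ratio rescaling 646 of 12208 genes were called in primary cells. Nothing is read from these counts of members. From immortalized to transformed cells at 3% oxygen the small heat shock protein genes called went from 4 to 2 with a filter of 5 TPM. CRYAB and HSPB7 were no longer tested under it, with means of at most 3.33 and 1.71 TPM in these groups. That filter called 1522 of 10228 genes, in place of 2026 of 12396. From transformed to metastasizing cells at 3% oxygen the small heat shock protein genes called went from 1 to 0 with a fit of only the groups compared. That fit called 0 of 12288 genes in this last comparison in place of 727, so nothing is read from the loss. In primary cells at 3% oxygen it called 164 genes in place of 646. In transformed cells it called 570 in place of 916, and in metastasizing cells 112 in place of 941. From transformed to metastasizing cells at atmospheric oxygen it called 544 in place of 503. In the difference of their oxygen responses it called 123 in place of 1066. In immortalized cells at 3% oxygen it called 542 in place of 592. In the difference of oxygen responses of transformed and immortalized cells it called 1686 in place of 1522. The fit has few degrees of freedom in every comparison. Under it partner genes went from 4 to 1 in primary, 5 to 2 in transformed and 3 to 1 in metastasizing cells at 3% oxygen. They went from 5 to 3 from transformed to metastasizing cells at atmospheric oxygen, and from 16 to 1 in the difference of oxygen responses of metastasizing and transformed cells. Under it contractile genes went from 5 to 1 in primary and 1 to 2 in immortalized cells at 3% oxygen, and from 1 to 2 from transformed to metastasizing cells at atmospheric oxygen, as also at an adjusted p under 0.05. Partner genes in primary cells were 2 with a pseudocount of 0.1. In immortalized cells they were 0 with median-ratio rescaling, quantile normalization or protein-coding transcripts only, and from transformed to metastasizing cells at atmospheric oxygen 3 with protein-coding transcripts only. The 1 contractile gene called from transformed to metastasizing cells was 0 without a filter, with either rescaling, with the replicate block and with protein-coding transcripts only. Apart from the filter of 5 TPM, the cause of these changes was not tested.

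Leaving out each library in turn, with the remaining library of a group assumed to vary like the other groups, gave the ranges below. The share of all genes called is not given beside them, so nothing is read from the counts of members. Called small heat shock protein genes ran from 1 to 2 in primary, immortalized and metastasizing cells and stayed at 1 in transformed cells between oxygen levels, from 5 to 6, 3 to 4 and 1 to 1 over the stage steps at atmospheric oxygen, and 5 to 5, 3 to 4 and 1 to 1 at 3% oxygen. Partner genes ran from 0 to 4, 0 to 1, 3 to 5 and 1 to 5 between oxygen levels, from 5 to 8, 30 to 34 and 1 to 5 over the steps at atmospheric oxygen, and from 17 to 20 and 9 to 22 in the differences of oxygen responses. Contractile genes ran from 2 to 5, 0 to 2, 2 to 3 and 0 to 2 between oxygen levels and from 8 to 11, 3 to 4 and 0 to 2 over the steps at atmospheric oxygen.

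With a replicate block, 601 genes were called between oxygen levels in primary cells in place of 646, and the counts of small heat shock protein genes did not move. Since the letters were not taken as pairs, a call lost under the block is not a weaker effect.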
